A study of Mus musculus with 2 samples.

Results

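Cell cycle and DNA replication genes were examined in native eosinophils of the bone marrow, as 42 genes chosen by name from the 23343 gene symbols of the deposited tables. All 42 had a row. They were divided by their known role into 11 genes of S phase, 9 genes that control G1 and the entry into S phase, 18 genes of mitosis and 4 inhibitors of cyclin-dependent kinases (CDKs). The cells came from pooled marrow of naive C57BL6J mice and were sorted as positive for the eotaxin receptor CCR3 and the lectin SiglecF. Stranded poly(A) libraries were made from 2 independent sorts, 1 library each, called sort 1 and sort 2 after the numbers in their titles. They form 1 group with no treatment and no second cell type, so levels are described and the only comparison is between the 2 libraries. The pools had a number and age of mice not given in the sources used here.

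A cell divides by copying its DNA in S phase and separating the copies in mitosis. D-type cyclins with CDK4 or CDK6 start the process in G1 by phosphorylating the retinoblastoma protein, which frees E2F factors to turn on replication genes, and cyclin A and cyclin B with CDK1 later drive mitosis. CDK inhibitors of the CIP/KIP and INK4 families hold these kinases back. Eosinophils arise in the marrow from dividing precursors and stop dividing as they mature, so a sort of marrow eosinophils can hold cells at several stages. In bulk RNA, fewer cells in cycle and less RNA per cycling cell cannot be told apart.

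Sort 1 had 10087743 reads in its table and sort 2 had 9264150, and the 42 genes took 0.286% of them (95% Wilson interval 0.283 to 0.289) and 0.401% (0.397 to 0.406). Of the 42 genes, Mki67 alone took 0.0874% and 0.168%. The ribosomal RNA precursor Rn45s, whose reads are part of these totals, took 9.07% of sort 1 and 0.963% of sort 2. Xist, the RNA of the inactive X chromosome, had 47487 reads in sort 1 and 5 in sort 2. The Y-linked genes Kdm5d, Ddx3y, Eif2s3y and Uty had 0 reads in sort 1 and 355 to 756 in sort 2. Sort 1 thus had the sex-linked RNA of female cells and sort 2 that of male cells. A difference between the sorts cannot be told apart from a difference by sex. Markers of the labelled cell type were high. The 10 eosinophil markers with a row, which include Ccr3 and Siglec5 (SiglecF), had medians of 134.8 and 136.2 RPKM (reads per kilobase of transcript, scaled by library size), and Prg2, which encodes major basic protein, had 911 and 1339. Their summed levels were 3482 and 4321 RPKM. Late granule genes of neutrophils summed to 4226 and 3950 RPKM, and their Retnlg, a resistin-like protein, had the highest mean level of all genes, 2321 and 2439. The 6 genes listed for neutrophil primary granules and precursors ranged from 2.88 to 161 RPKM in sort 1 and from 3.82 to 173 in sort 2. Mpo, myeloperoxidase, was the highest.

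Promoter sequences of 36 of the 42 genes were found in the RefSeq table (build GRCm38.p6), and the 250 bases before the start were searched on both strands. E2F letters (TTTCGCGC, TTTGGCGC or TTTCCCGC) were in 3 of 10 S phase promoters, or 30.0%, and in 1 of 15 mitosis promoters, or 6.67%, against 1.53% of all 32851 promoters of the table. Letters of the cell cycle homology region, or CHR, the element bound by the repressor and activator complexes of mitotic genes (TTTGAA or TTCGAA), were in 8 of 15 mitosis promoters, or 53.3%, and in 2 of 10 S phase promoters, against 17.1% of all promoters. The CCAAT letters bound by NF-Y were in 14 of 15 mitosis promoters and 8 of 10 S phase promoters, against 33.8% of all. Of 7 promoters of G1 control genes, 1 held E2F letters, 0 held CHR letters and 2, or 28.6%, held CCAAT. No inhibitor promoter of 4 held E2F or CHR letters in this window, and 2 held CCAAT. A match is a description of the letters and not a measured binding site.

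The promoters below are shown because they set promoters with E2F letters, promoters with CHR letters and an inhibitor without either side by side. They are the highest-expressed S phase genes with E2F letters (Mcm6 on the minus strand at chr1:128359706-128359955 and Mcm7 on the minus strand at chr5:138171884-138172133), the highest-expressed mitosis genes with CHR letters (Mki67 on the minus strand at chr7:135716380-135716629 and Ube2c on the plus strand at chr2:164769679-164769928) and the inhibitor with the highest mean of the sorts (Cdkn1b on the plus strand at chr6:134920151-134920400). Each is written 5′ to 3′ along its gene and ends just before the RefSeq start. Capitals mark CCAAT letters in every sequence, E2F letters in Mcm6 and Mcm7, and CHR letters in Mki67 and Ube2c, on either strand.
Mcm6: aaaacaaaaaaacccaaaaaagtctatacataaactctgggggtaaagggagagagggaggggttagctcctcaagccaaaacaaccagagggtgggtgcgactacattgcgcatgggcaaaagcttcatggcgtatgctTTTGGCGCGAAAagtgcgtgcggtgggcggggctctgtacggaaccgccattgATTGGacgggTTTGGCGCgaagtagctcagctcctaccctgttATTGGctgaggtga
Mcm7: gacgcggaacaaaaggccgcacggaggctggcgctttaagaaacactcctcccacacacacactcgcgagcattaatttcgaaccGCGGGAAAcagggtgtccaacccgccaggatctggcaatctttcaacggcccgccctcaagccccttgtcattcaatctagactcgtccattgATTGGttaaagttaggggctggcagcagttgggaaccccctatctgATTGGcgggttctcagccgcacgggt
Mki67: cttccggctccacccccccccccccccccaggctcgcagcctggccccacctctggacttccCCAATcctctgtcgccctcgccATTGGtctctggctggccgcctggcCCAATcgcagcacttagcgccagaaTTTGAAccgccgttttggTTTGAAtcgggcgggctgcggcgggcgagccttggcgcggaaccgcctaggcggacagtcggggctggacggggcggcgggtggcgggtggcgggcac
Ube2c: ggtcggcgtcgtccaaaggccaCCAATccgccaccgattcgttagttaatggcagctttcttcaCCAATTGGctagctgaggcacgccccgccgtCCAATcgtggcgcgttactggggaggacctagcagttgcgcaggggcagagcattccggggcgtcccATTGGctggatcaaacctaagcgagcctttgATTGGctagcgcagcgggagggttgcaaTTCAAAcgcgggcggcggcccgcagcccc
Cdkn1b: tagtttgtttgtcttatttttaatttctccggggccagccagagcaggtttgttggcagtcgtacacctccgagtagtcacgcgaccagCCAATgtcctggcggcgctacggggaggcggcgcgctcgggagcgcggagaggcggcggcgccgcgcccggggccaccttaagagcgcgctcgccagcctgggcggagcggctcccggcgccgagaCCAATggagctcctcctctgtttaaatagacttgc
In Mcm6 the capitals hold 3 E2F matches, 2 of which overlap. Mcm7 holds 1, on the opposite strand, and it also holds CHR letters, 168 to 173 bases before the start, which are left in lower case. Mki67 holds 2 CHR matches, 93 to 116 bases before the start. Ube2c holds 1 CHR match, 24 to 29 bases before the start, and 6 CCAAT matches.

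Transcripts of the cell cycle were present at low to moderate levels in both sorts. A gene is called detected at 1 RPKM or more in each sort. This was reached by 36 of the 42 genes, or 85.7%, against 30.2% of all 23343 genes. Of those 23343, 7886 had no read in either library. Among the 12347 genes with at least 10 reads over both libraries, which include all 42, the share was 57.1%. The 42 genes had median levels of 3.06 RPKM in sort 1 and 3.27 in sort 2, and 16 of them had a mean above 4.03 RPKM, the median of all detected genes. Not detected in one sort or in both were Tyms, Ccnd2, E2f1, Ccne1, Ccne2 and Cdkn2c. By role, the median was 3.08 ± 0.0976 RPKM for S phase, 2.996 ± 1.11 for G1 and G1/S control, 3.23 ± 0.522 for mitosis and 3.84 ± 1.17 for the inhibitors (SD, n = 2 sorts). The gap between the lowest and the highest of these medians was smaller than the SD of the G1 control and inhibitor medians. The median of mitosis genes was 0.949 times that of S phase genes in sort 1 and 1.14 times in sort 2, so the order of these roles was not the same in the 2 libraries.

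**Figure D1:**
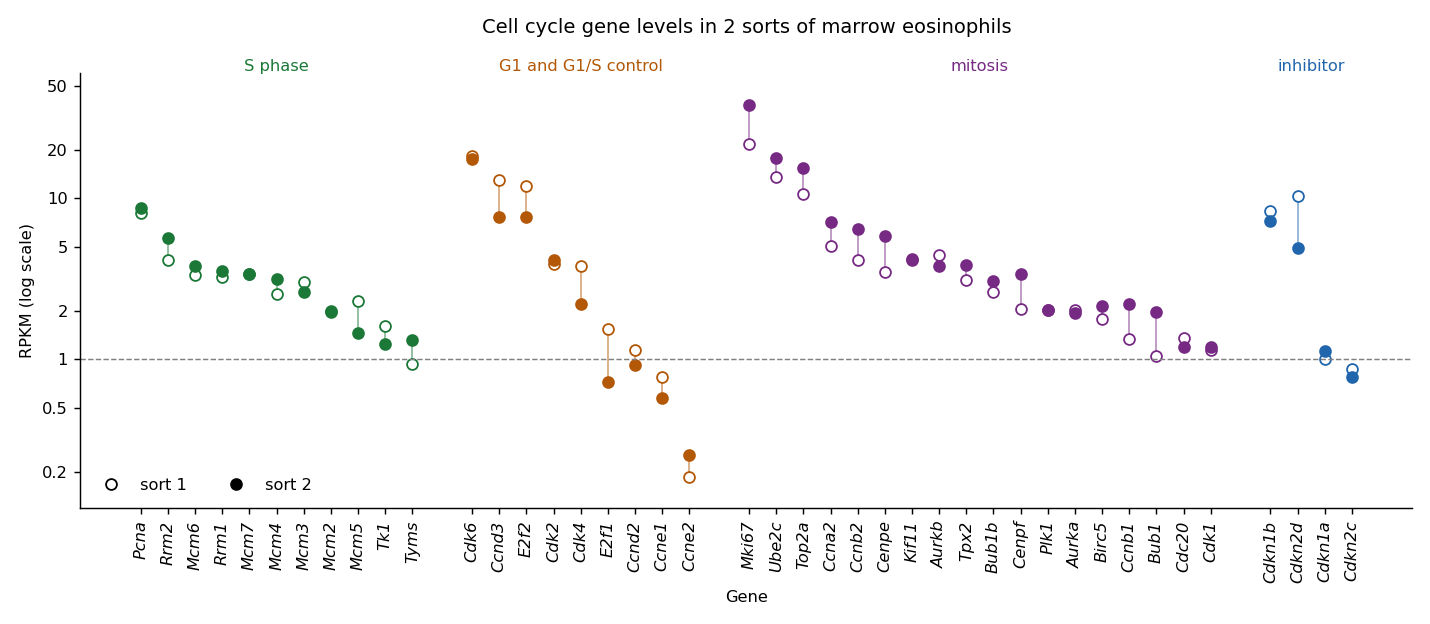
RPKM on a log axis of each of the 42 genes in sort 1 (open circles) and sort 2 (filled circles), by role and ordered by mean within a role; the dashed line is 1 RPKM. All 18 mitosis genes lie above the line in both sorts, and the 3 highest are Mki67, Ube2c and Top2a.

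Among S phase genes the 6 subunits of the Mcm helicase, which opens the DNA at replication origins, lay close together. Their levels ranged from 1.96 RPKM (Mcm2) to 3.37 (Mcm7) in sort 1 and from 1.47 (Mcm5) to 3.78 (Mcm6) in sort 2. The highest subunit was 1.72 times the lowest in sort 1 and 2.57 times in sort 2. Pcna, the sliding clamp of the replication polymerases, led the role with 8.07 and 8.76 RPKM in sorts 1 and 2. It ranked 1756 of all genes by mean level.

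The enzymes that supply deoxynucleotides spanned a wider range. Rrm2, the regulated subunit of ribonucleotide reductase, had 4.15 and 5.70 RPKM, and its partner Rrm1 had 3.25 and 3.51. Tk1, thymidine kinase, had 1.61 and 1.25 RPKM. Tyms, thymidylate synthase, was the lowest of the role by mean, with 0.935 RPKM in sort 1 and 1.31 in sort 2. The deposited row of Tk1 overlaps Afmid on the opposite strand by 96 bases, and the counting used a strand setting not given in the sources used here. Ccna2, Ccnd3 and Cdc20 likewise overlap opposite-strand genes, Exosc9 by 863 bases, Bysl by 358 and Elovl1 by 16.

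Genes that control G1 divided into high and low members. Cdk6, a partner of the D-type cyclins, had 18.4 and 17.4 RPKM, and its homologue Cdk4 had 3.78 and 2.21, so that Cdk6 was 6.37 ± 2.13 times Cdk4 per length (SD, n = 2). Ccnd3, cyclin D3, had 13.0 and 7.65 RPKM, while Ccnd2, cyclin D2, had 1.14 and 0.922. Ccnd1, cyclin D1, which is outside the 42 genes, had 0.826 and 0.632 RPKM. Ccnd3 was therefore the D-type cyclin with the highest level in each library, 9.88 ± 2.23 times Ccnd2 and 13.9 ± 2.60 times Ccnd1 (SD, n = 2). It was counted in 2 rows with different starts, of which the upstream row, from 47505051 to 47599688 on chromosome 17 (mm10), had 685 and 409 of the 1075 and 632 reads. With the highest row alone, Ccnd3 was 6.23 ± 1.34 times Ccnd2 and 8.79 ± 1.54 times Ccnd1 (SD, n = 2).

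Cyclin E was scarce beside cyclin D3. Ccne1 had 0.783 and 0.579 RPKM from 62 and 46 reads, and Ccne2 had 0.187 and 0.254 from 22 and 31 reads. The Ccne2 rows overlap Ints8 on the opposite strand, which had 777 and 925 reads. Their kinase Cdk2 had 3.93 and 4.12 RPKM. Of the E2F activators, E2f2 had 11.9 RPKM in sort 1 and 7.62 in sort 2, and E2f1 had 1.54 and 0.721. E2f2 was 9.15 ± 2.02 times E2f1 (SD, n = 2), and the levels of the 2 genes did not overlap.

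Mitosis genes were all detected, from 1.05 to 21.6 RPKM in sort 1 and from 1.19 to 37.97 in sort 2. Mki67, the Ki-67 protein that coats mitotic chromosomes and marks dividing cells, had 21.6 RPKM from 8821 reads in sort 1 and 37.97 from 15533 in sort 2, and ranked 393 of all genes by mean level. Ube2c, the ubiquitin-conjugating enzyme of the anaphase-promoting complex, had 13.6 and 17.9 RPKM, and Top2a, the topoisomerase that disentangles chromosomes, had 10.7 and 15.4. These 3 genes stood above the other 15 genes of the role, whose highest values were 5.06 and 7.15 RPKM, both of Ccna2, cyclin A2.

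Cyclin and kinase transcripts of mitosis were unequal. Ccnb2, cyclin B2, had 4.15 and 6.44 RPKM and Ccnb1, cyclin B1, had 1.34 and 2.20, a ratio of 3.01 ± 0.115 (SD, n = 2). Cdk1, their catalytic partner, had 1.15 and 1.19 RPKM, the lowest mean of the role. The Aurora kinases Aurkb, of the chromosomal passenger complex, and Aurka, of the spindle poles, had 4.42 and 3.80 and 2.02 and 1.95 RPKM. Birc5, survivin, which binds Aurkb, had 1.79 and 2.13 RPKM. Plk1, the polo-like kinase, had 2.02 and 2.01 from 180 reads in each library.

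Spindle and checkpoint genes lay in the same range. Kif11, the motor that separates spindle poles, had 4.18 and 4.16 RPKM, and Tpx2, which nucleates spindle microtubules, had 3.11 and 3.87. The kinetochore proteins Cenpe and Cenpf had 3.50 and 5.84 and 2.07 and 3.39 RPKM. The checkpoint kinases Bub1b and Bub1 had 2.61 and 3.07 and 1.05 and 1.97. Cdc20, the activator of the anaphase-promoting complex, had 1.36 and 1.19 RPKM.

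Of the 4 inhibitors, Cdkn1b and Cdkn2d were high and Cdkn1a and Cdkn2c were low. Cdkn1b, the CIP/KIP inhibitor p27, had 8.33 and 7.25 RPKM, and Cdkn1a, p21, had 1.01 and 1.13, a ratio of 7.35 ± 1.29 (SD, n = 2). Cdkn2d, the INK4 inhibitor p19, had 10.3 RPKM in sort 1 and 4.91 in sort 2, and Cdkn2c, p18, had 0.871 and 0.779. Cdkn2d was 11.9 times Cdkn2c in sort 1 and 6.29 times in sort 2. The reads of Cdkn1a were spread over 2 overlapping rows, with 0 and 77 reads in sort 1 and 44 and 44 in sort 2, and their sums of 77 and 88 are used here. With the highest row alone, Cdkn1b was 8.26 times Cdkn1a in sort 1 and 12.8 times in sort 2.

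The libraries were then compared gene by gene, to ask how far these levels held between sorts. Counts scaled by TMM were compared with an exact two-sided binomial test over 12347 genes with at least 10 reads, with Benjamini-Hochberg adjustment, and all 42 genes were tested. This test sets the 2 libraries against counting noise and does not compare conditions. At an adjusted p under 0.05 and any fold, 15 of the 42 genes, or 35.7%, were higher in sort 2, against 22.5% of all tested genes, and 6, or 14.3%, were higher in sort 1, against 21.9%. At a fold of at least 2 as well, 0 of 42 were higher in sort 2, against 3.05% of tested genes, and 2, or 4.76%, were higher in sort 1, against 4.95%. With the dispersion that edgeR estimated from the 2 libraries as 1 group (a biological coefficient of variation of 0.232), its exact test called none of the 42 at any fold and 33 of all genes. At an unadjusted p under 0.05 it had 1 of the 42 and 766 of all genes. That dispersion holds the difference between the sorts itself. The differences that passed below were larger than counting noise and did not pass against that spread.

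Mitosis genes leaned to sort 2. Of the 18 genes, 11, or 61.1%, passed as higher in sort 2 and 0 as higher in sort 1, against 22.5% and 21.9% of all tested genes. Their median log2 ratio, sort 2 over sort 1, was 0.43, against -0.004 over all tested genes. Mki67 had a log2 ratio of 0.88 (95% exact counting interval 0.84 to 0.92). Bub1 had the highest ratio of the role, 0.97 (0.71 to 1.24; adjusted p = 4.90e-13 by the exact binomial test), or 1.95-fold. Cenpe (0.81), Cenpf (0.78), Ccnb1 (0.77), Ccnb2 (0.70), Top2a (0.60), Ccna2 (0.56), Ube2c (0.46), Tpx2 (0.40) and Bub1b (0.30) passed in the same direction. The other genes of the role were at log2 ratios of -0.15 (Aurkb) to 0.30 (Birc5), with Cdk1 at 0.12, Plk1 at 0.06, Kif11 at 0.06, Aurka at 0.02 and Cdc20 at -0.12, and none of these passed.

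S phase genes were mixed. Of 11 genes, 4 were higher in sort 2 (Tyms at a log2 ratio of 0.55, Rrm2 at 0.53, Mcm4 at 0.37 and Mcm6 at 0.25), and Mcm5 was higher in sort 1 with -0.57 (-0.84 to -0.32). Higher in sort 2 were thus 36.4% and higher in sort 1 9.09%, against 22.5% and 21.9% of all tested genes. The median log2 ratio was 0.18. Of the 6 helicase subunits, then, 2 were higher in sort 2, 1 was higher in sort 1, and Mcm2, Mcm3 and Mcm7 had values of 0.10, -0.13 and 0.08. Pcna had 0.18, Rrm1 0.18 and Tk1 -0.29, and these did not pass.

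G1 control genes leaned to sort 1. Of 9 genes, 4, or 44.4%, were higher in sort 1 and 0 were higher in sort 2, against 21.9% and 22.5% of all tested genes. The median log2 ratio was -0.35. E2f1 had -1.004 (-1.45 to -0.61; adjusted p = 2.24e-06 by the exact binomial test), from 153 and 72 reads. Ccnd3 had -0.70, Cdk4 -0.69 and E2f2 -0.57. Cdk6, the most abundant of the role, had -0.01 (-0.10 to 0.09). Ccnd2 had -0.23, Ccne1 -0.35, Ccne2 0.52 and Cdk2 0.11, and these did not pass.

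Of the 4 inhibitors only Cdkn2d passed, as higher in sort 1. Over all tested genes, 21.9% were higher in sort 1 and 22.5% in sort 2. This 1 call among 4 genes does not set the role apart from all tested genes. Cdkn2d had 532 reads in sort 1 and 253 in sort 2, with a log2 ratio of -1.002 (-1.23 to -0.79). Its adjusted p was 8.82e-20 by the exact binomial test. Cdkn1b had -0.13, Cdkn2c -0.09 and Cdkn1a 0.25, with intervals of -0.28 to 0.01, -0.79 to 0.60 and -0.20 to 0.72. The direction of Cdkn1a depended on summing its 2 overlapping rows. Its highest row alone had 77 reads in sort 1 and 44 in sort 2, the opposite direction, and 0.567 RPKM in sort 2. E2f1 and Cdkn2d, the 2 genes past the 2-fold minimum, were at its edge. With DESeq2 size factors neither reached it, and with total counts their log2 ratios were -0.95 and -0.94 and Bub1 reached it instead with 1.03.

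**Figure D2:**
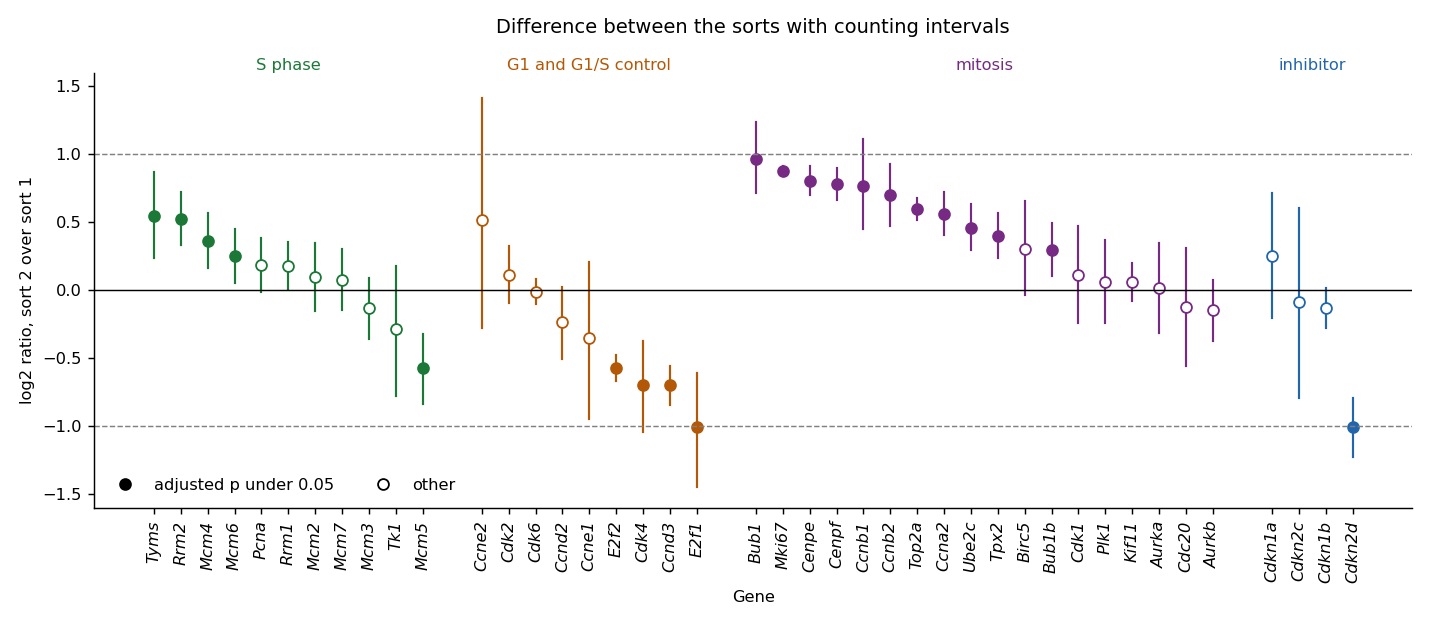
Log2 ratio of sort 2 to sort 1 for the 42 genes by role, with 95% exact counting intervals as bars; filled circles passed an adjusted p under 0.05 in the binomial test, and dashed lines mark 2-fold. Mitosis genes run from 0.97 (Bub1) to -0.15 (Aurkb), and E2f1 and Cdkn2d lie at -1.004 and -1.002.

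The ratios moved with transcript base composition. Over the 8680 genes that had 100 reads or more, which share the same 2 libraries, the Spearman correlation of the log2 ratio with transcript GC content was -0.54, and across the 42 genes it was -0.65. Within roles the correlation was -0.92 for the 9 G1 control genes, -0.68 for the 18 mitosis genes and -0.58 for the 11 S phase genes. The part of base composition in the differences was examined only by the shift described here. The median GC content was 47.5% for mitosis genes, 49.1% for S phase genes, 50.05% for the inhibitors and 52.7% for G1 control genes. After subtraction of the running median at each gene's GC content, the median log2 ratio was 0.35 for mitosis, 0.18 for S phase, -0.30 for G1 control and -0.31 for the inhibitors. Mki67 then had 0.77, Bub1 0.67, E2f1 -0.69 and Cdkn2d -0.76. With the expected share of reads shifted in the same way, 17.6% of all 12164 genes with a GC value were higher in sort 2 and 18.7% were higher in sort 1. Of the 18 mitosis genes, 11 were higher in sort 2 and Kif11, at -0.20, was higher in sort 1. In S phase, Mcm4 (0.18) and Mcm6 (0.22) no longer passed, Mcm2 (0.32) now passed, and Mcm5, Rrm2 and Tyms still passed in the same directions. Of the 9 G1 control genes, 6 were higher in sort 1. Cdk6 (-0.21) and Ccnd2 (-0.34) now passed, and Ccnd3 and E2f2 still passed at smaller ratios of -0.36 and -0.30. The GC content of Cdk6 came from a transcript of 11520 bases, while its reads and RPKM imply a much shorter counted length. Its shift is therefore uncertain. Of the 4 inhibitors, Cdkn2d and now Cdkn1b (-0.30) were higher in sort 1.

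**Figure D3:**
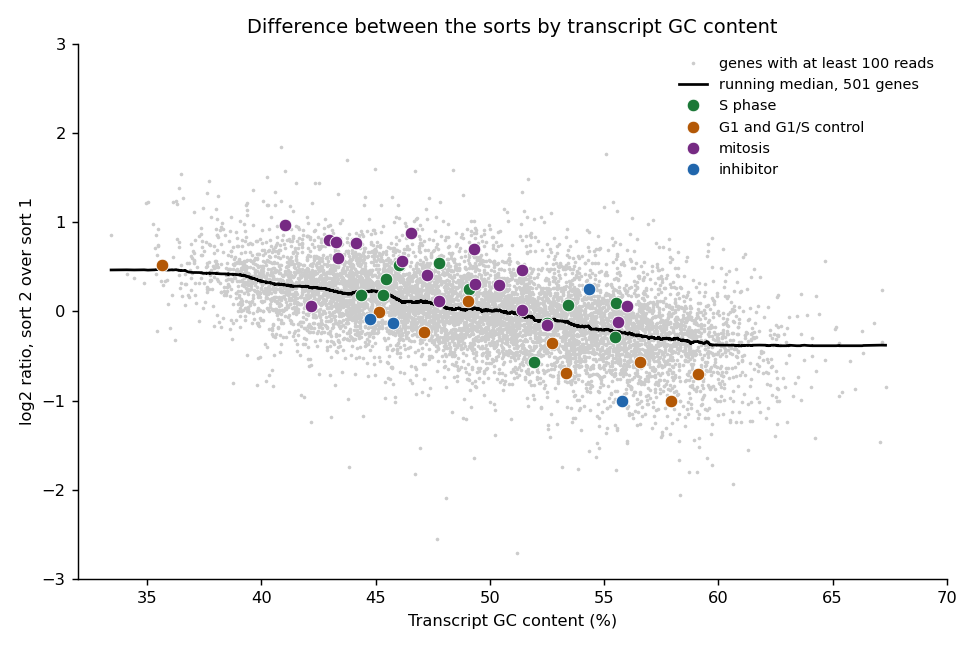
Log2 ratio of sort 2 to sort 1 against transcript GC content in percent, for genes with at least 100 reads (grey), their running median (line) and the 42 genes coloured by role. The running median falls with GC content, most mitosis genes lie above it, and most G1 control genes lie below it.

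The wider pathway was read from 9 further lists of 163 genes, of which 158 were tested. In all, 74, or 46.8%, were higher in sort 2 at any fold, against 22.5% of all tested genes. Another 11, or 6.96%, were higher in sort 1, against 21.9%, and the median log2 ratio was 0.29. With the shift for GC content these counts were 58 and 12, against 17.6% and 18.7% of all genes, and edgeR's exact test called none. After subtraction of the running GC median, the median log2 ratio was 0.195. In the binomial test without the shift, 6 of the 158 passed 2-fold as higher in sort 2, or 3.80%, against 3.05% of all tested genes. As higher in sort 1, 2 passed 2-fold, or 1.27%, against 4.95%. The lists were chosen with earlier results of these data known, and no list was tested as a set.

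Replication genes outside the 42 had medians near 1 RPKM. Of 17 genes of origin licensing and firing, 8 were detected, and their medians were 0.969 and 1.01 RPKM. They were led by Orc3 (5.07 and 5.78) and Orc4 (2.13 and 2.95) of the origin recognition complex and Gins4 (4.53 and 4.50) of the helicase. The 26 genes of the replication fork and nucleotide supply had 15 detected and medians of 1.18 and 1.26, led by the clamp loader subunit Rfc2 (10.3 and 6.86), the maintenance methyltransferase Dnmt1 (6.93 and 6.01) and the topoisomerase Top1 (5.17 and 6.49). Passing at any fold as higher in sort 2 were 5 and 9 genes of these lists, or 29.4% and 34.6%, against 22.5% of all tested genes. Higher in sort 1 were 1 and 3, or 5.88% and 11.5%, against 21.9%. At 2-fold, the initiation factor Mcm10 (47 and 100 reads) and the clamp loader subunit Rfc3 (12 and 38) were higher in sort 2. The median log2 ratios of the 2 lists were 0.255 and 0.208, and 0.118 and 0.288 after subtraction of the running GC median.

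Mitotic machinery outside the 42 also leaned to sort 2, except the anaphase-promoting complex. Over all tested genes, 22.5% were higher in sort 2 and 21.9% in sort 1. Of 20 genes of spindle motors and cytokinesis, 17, or 85.0%, were higher in sort 2 and 0 in sort 1, with a median log2 ratio of 0.58. They were led by Ckap5 (4.08 and 4.57 RPKM), Nusap1 (2.98 and 4.98) and Anln, anillin of the cleavage furrow (3.19 and 4.04), and the kinesin Kif20b (375 and 791 reads) passed 2-fold. Of 14 genes of condensin and cohesin, which shape and hold chromosomes, 9, or 64.3%, were higher in sort 2. The highest by mean level were Smc1a at 16.7 and 21.9 RPKM, Smc4 at 13.3 and 21.8 and Rad21 at 16.5 and 15.4. Rad21 did not pass, with a log2 ratio of -0.03. Of 19 kinetochore and checkpoint genes, 8, or 42.1%, were higher in sort 2 and 1, Mad1l1 (116 and 49 reads, past 2-fold), in sort 1. Their highest members were Cenpa, the centromeric histone, at 4.88 and 6.82 RPKM, Bub3 at 4.89 and 6.39 and Incenp at 4.63 and 5.47. Of the 15 genes of the anaphase-promoting complex, which marks mitotic proteins for destruction, 2 were higher in sort 2 and 3 in sort 1. Its leading members Anapc13, Anapc5 and Cdc27 had 14.3 and 14.8, 8.21 and 5.50 and 5.18 and 6.97 RPKM. After subtraction of the running GC median, the median log2 ratio of condensin and cohesin went from 0.324 to 0.121. That of spindle motors and cytokinesis was then 0.504. Kinetochore and checkpoint genes went from 0.323 to 0.318, and the anaphase-promoting complex from -0.044 to -0.068.

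Genes that restrain or monitor the cycle included the highest of the pathway. In the list of other cyclins and inhibitors, the antiproliferative genes Btg1 and Btg2 had 53.9 and 53.5 and 52.4 and 51.4 RPKM, and Gadd45a, a stress-response gene, had 33.6 and 37.1. Each of these means exceeded that of Mki67. Of the 10 genes of this list that were tested, 5 were higher in sort 2 and 1, Gadd45b (75 and 34 reads, past 2-fold), in sort 1. For this and the following lists, the shares of all tested genes were 22.5% higher in sort 2 and 21.9% in sort 1. Ccna1, Ccnb3 and Btg3 were listed at 0 reads in both libraries, which allows up to 3 reads in each. In the RB and E2F list, Rbl2, the pocket protein p130 of resting cells, led with 16.9 and 21.5 RPKM, followed by Rb1, the retinoblastoma protein, with 9.85 and 12.4 and the E2F partner Tfdp1 with 9.73 and 10.9. Of its 19 genes 9, or 47.4%, were higher in sort 2 and 1, or 5.26%, in sort 1, and Lin9 of the MuvB complex (59 and 157 reads) passed 2-fold. Among 18 kinases, phosphatases and related cyclins of entry and checkpoints, 10, or 55.6%, were higher in sort 2 and 1, or 5.56%, in sort 1. Their median log2 ratio was 0.303, and 0.063 after subtraction of the running GC median. For the RB and E2F list these medians were 0.352 and 0.246, and for other cyclins and inhibitors 0.060 and 0.031. The G-type cyclins Ccng2 (11.1 and 13.1 RPKM) and Ccng1 (7.97 and 12.2) were the highest, the CDK-activating kinase Cdk7 had 1.623 and 2.03, and the checkpoint kinase Chek1 (33 and 76 reads) passed 2-fold.

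Markers of other marrow cells also differed between the libraries. At any fold, 22.5% of all tested genes were higher in sort 2 and 21.9% in sort 1. All 6 genes listed for neutrophil primary granules and precursors had log2 ratios above 0 and 5 were higher in sort 2. Their median was 0.46 and their summed levels were 345 and 432 RPKM. Of these sums, Igsf6, which is not a granule gene, had 91.7 and 139.9. Erythroid markers, 12 with a row, had 4 higher in sort 2 and 1 in sort 1, a median of 0.54 and sums of 6.54 and 8.96 RPKM. The globin genes Hba-a1 and Hba-a2 each had 14 and 32 reads, so 2 of these calls may rest on the same reads. Hbb-b2 had no row, so the sums may miss globin RNA. Eosinophil markers had 7 of 10 higher in sort 2 and 1, Prg3 (-0.21), in sort 1, with a median of 0.24. Late granule genes of neutrophils had 7 of 10 higher in sort 1 and 2 in sort 2, with a median of -0.24. Monocyte and macrophage markers had 8 of 12 higher in sort 1 and 3 in sort 2 (median -0.40, sums of 299 and 234), and B and plasma cell markers had 4 of 11 tested higher in sort 1 (median -0.43, sums of 13.05 and 8.97). Stem and progenitor, megakaryocyte and T and NK cell markers had medians of -0.03, -0.19 and -0.43 and sums of 31.7 and 30.9, 37.1 and 30.8, and 11.4 and 11.8 RPKM. No marker with a row had 0 reads in both libraries, and C1qa had 16 reads in sort 1 and 0 in sort 2. The part of these cells in the cell cycle levels was not tested.

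**Figure D4:**
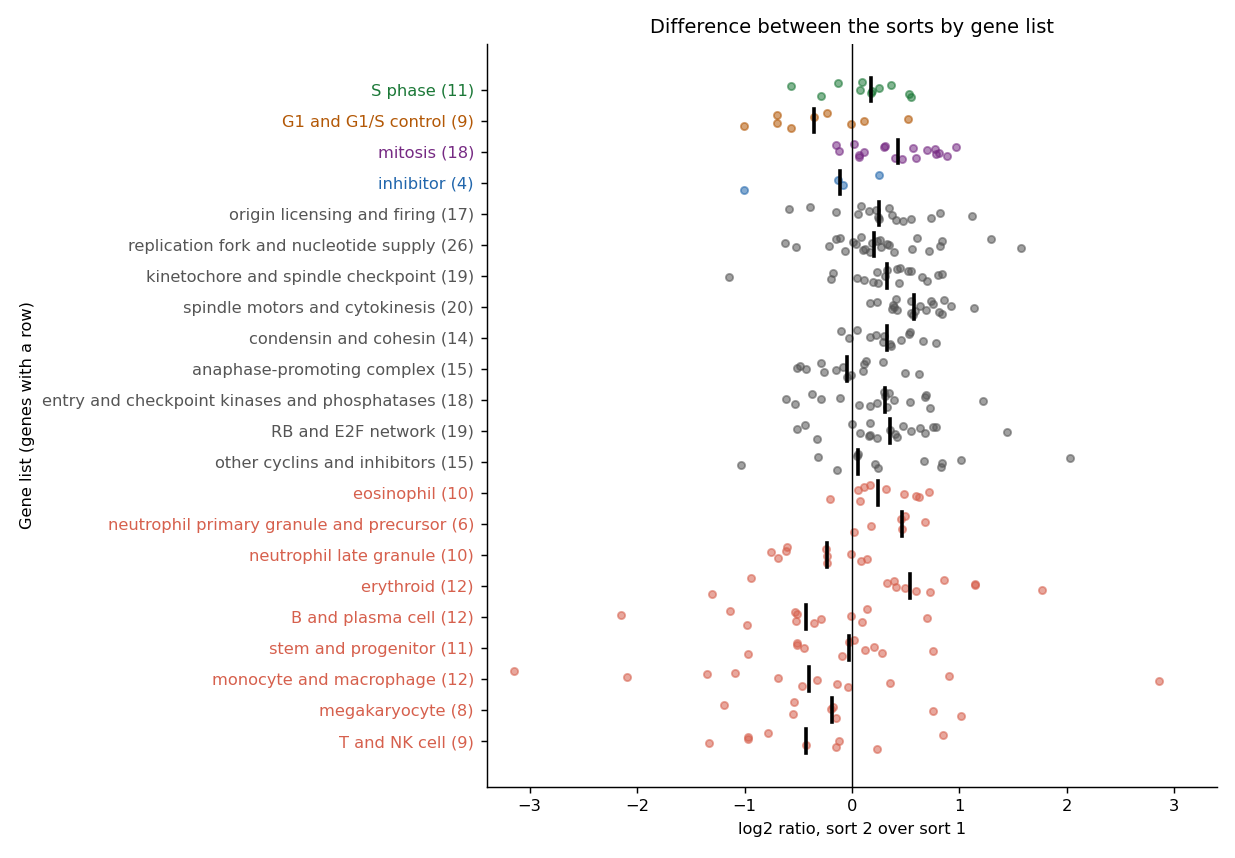
Log2 ratio of sort 2 to sort 1 of each gene with reads, for the 4 roles (coloured), the further pathway lists (grey) and markers of cell types (red), with the number of genes with a row in brackets; black bars are the medians over all genes with a row. The medians are 0.43 for mitosis, 0.58 for spindle motors and cytokinesis and 0.46 for neutrophil primary granule and precursor genes.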

How the data were processed

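Poly(A) RNA of 2 sorts of marrow eosinophils was sequenced as stranded dUTP libraries, per the labels' protocols, and aligned with STAR 2.4.0c to mm10, per the submitters' processing notes. Reads were counted by a tool, strand setting and multi-mapping rule not given in the sources used here. For each of 26099 groups of RefSeq transcripts, the deposited tables hold a read count. The authors also deposited an RPKM per row, and these values imply a divisor larger than the table totals. Counts and RPKM were summed per gene symbol. Levels between genes were compared on RPKM only.

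Counts were scaled by TMM (edgeR 4.0.16) and compared with an exact two-sided binomial test (scipy 1.17.1) over all genes whose 2 libraries summed to 10 reads or more, with Benjamini-Hochberg adjustment. A call needed an adjusted p under 0.05, with a fold of at least 2 where stated. Log2 ratios used a prior count of 2, and their intervals (95%, exact binomial) cover counting error only: the reads carry no molecular identifiers and may repeat a molecule. With 1 library a sort, edgeR's quasi-likelihood fit has no residual degrees of freedom. Transcript GC content came from GENCODE M21 transcripts matched by RefSeq accession, and the running median took 501 genes. Promoters came from RefSeq, GRCm38.p6, using the entry nearest the deposited start, at that start for 24 of 36 genes and at most 426 bases from it.

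The genes and lists were chosen with earlier results of these data known. Named were all 42 genes and, of each further list, the 3 with the highest mean RPKM, those called at 2-fold and those with no read. One gene that this rule names is not reported here. The same rule covers the marker lists, which are given here mainly as sums and counts. Ccnd1 was named beside the other D-type cyclins after its values were seen. Protein sequences were not used here. Alternatives were other detection minimums, DESeq2 1.42.0 size factors, total counts, other count filters, the edgeR exact test, deposited RPKM, the highest row per gene, and each sort alone. The GC-shifted test and the ratios with the highest row alone were added after the data were seen.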

Additional observations from a re-analysis of the deposited data

How the results depend on the processing

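The number of the 42 genes detected was 36, and 26 to 42 under other detection minimums or with the highest row per gene (35). It was 37 to 38 with 1 sort left out. The 2 genes past 2-fold became 0 with DESeq2 size factors, 1 with total counts, 0 with the edgeR exact test, 0 with the shift for GC content and 21 at any fold. The edgeR exact test moved the counts at any fold from 15 and 6 to 0 and 0, since it adds the dispersion estimated from the same 2 libraries, and the counts over all genes from 2783 and 2710 to 16 and 17. The shift for GC content, added after the data were seen, moved the count higher in sort 1 to 10, and the inhibitor median ratio to -0.31, and turned Kif11 from 0.06 to -0.20. With a back-transformed mean of log2(RPKM + 1) in place of the median, the S phase level was 2.89 and the mitosis level 3.90 RPKM. The G1 control level was then 3.18 and the inhibitor level 3.075 RPKM. Mitosis was thus the highest role in place of the inhibitors. With 1 sort left out, levels were 3.01 to 3.15 (S phase), 2.21 to 3.78 (G1 control), 2.86 to 3.60 (mitosis) and 3.02 to 4.67 RPKM (inhibitors). Median ratios by role kept their direction under the 3 other scalings and the GC correction; a minimum of 10 reads removed none of the 42 genes. Total counts moved the median of all tested genes to 0.05 and deposited RPKM to -0.07. No paired analysis was possible because the labels give 1 group. Leaving out a sort ends the comparison of the sorts. Depth limited Ccne2 most, whose 22 and 31 reads gave an interval of -0.28 to 1.42.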
